A study of Mus musculus with 18 samples.

Results

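The complement system genes described here are 32 genes that encode the soluble components, receptors and regulators of complement, matched by gene symbol in both tables of liver counts. They are 32 of the 40840 genes counted. Of these, 22 are components made mainly by hepatocytes (C1ra, C1s1, C2, C3, C4a, C4b, C4bp, Hc, C6, C8a, C8b, C8g, C9, Cfb, Cfi, Masp1, Masp2, Mbl1, Mbl2, Serping1, Clu and Vtn), 5 are members expressed by macrophages (C1qa, C1qb, C1qc, C3ar1 and C5ar1), and the remaining 5 are Cfp, Cd55, Cd59a, Fcna and Cfd, which have other or mixed sources. After a filter on low counts all 32 could be tested in DIO livers and 31 in ob/ob livers, where Cfd was too low.

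RNA was sequenced from livers of ovariectomized female C57BL/6 mice in 2 models of obesity. DIO (diet-induced obesity) mice were wild type and were fed a high-fat chow (45% of its calories as fat, cholesterol at 0.2%). The ob/ob mice were leptin-deficient and received a normal diet. In each model, 3 mice had received PaPE-1 (a pathway preferential estrogen, a ligand of estrogen receptor α with low binding affinity) at 300 µg per kg per day, 3 had received E2 (17β-estradiol) at 5 µg per kg per day, and 3 had received vehicle, by osmotic minipump for 6 weeks, so that 18 libraries fell into 6 groups of 3. Both control groups were thus ovariectomized and obese, and no lean or sham-operated liver was analysed. The doses of the ligands differ, so the effect of each is set against vehicle and the ligands are given side by side without a test between them.

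Complement is a cascade of plasma proteins that tags microbes and damaged cells. It is started by C1q bound to antibody (classical pathway), by mannose-binding lectins and ficolins bound to sugars (lectin pathway) or by slow spontaneous activation of C3 (alternative pathway), and it ends in the membrane attack complex of C5 to C9. Hepatocytes make most of the circulating proteins, whereas C1q is made chiefly by macrophages, in the liver the Kupffer cells.

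Total counts were 16651616 to 21703791 in DIO libraries and 10470665 to 17021370 in ob/ob libraries. The hepatocyte marker Alb was at 62050 to 98200 CPM (read counts scaled to library size, with TMM factors) in the 9 DIO libraries and at 63950 to 119300 CPM in the 9 ob/ob libraries, and the Kupffer cell marker Clec4f was at 51.3 to 212.1 CPM over all 18, so that both cell types of interest were represented. The fat cell marker Adipoq had at most 0.132 CPM in any library.

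Per kilobase of exonic length, the members spanned several orders of magnitude in vehicle livers. C3, the central component of all pathways, was highest in DIO vehicle livers with a mean of 1047 CPM per kilobase, followed by Vtn (vitronectin, which also blocks the membrane attack complex) at 864.8, Clu (clusterin, another fluid-phase inhibitor) at 572.9 and Cfb (factor B) at 482. In ob/ob vehicle livers Vtn led at 944.2, then Clu at 851.9, C3 at 787.5 and Cfb at 370.2 CPM per kilobase. The 3 C1q subunit genes stood at nearly equal levels, between 51.18 and 57 CPM per kilobase in DIO vehicle livers and between 40.26 and 48.9 in ob/ob vehicle livers. The anaphylatoxin receptors were near the bottom, C3ar1 at 1.187 and C5ar1 at 0.5164 CPM per kilobase in DIO vehicle livers, and Cfd was at 0.04738 CPM per kilobase in ob/ob vehicle livers. The models were counted in separate tables and scaled separately, so levels were not tested between them.

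**Figure D1:**
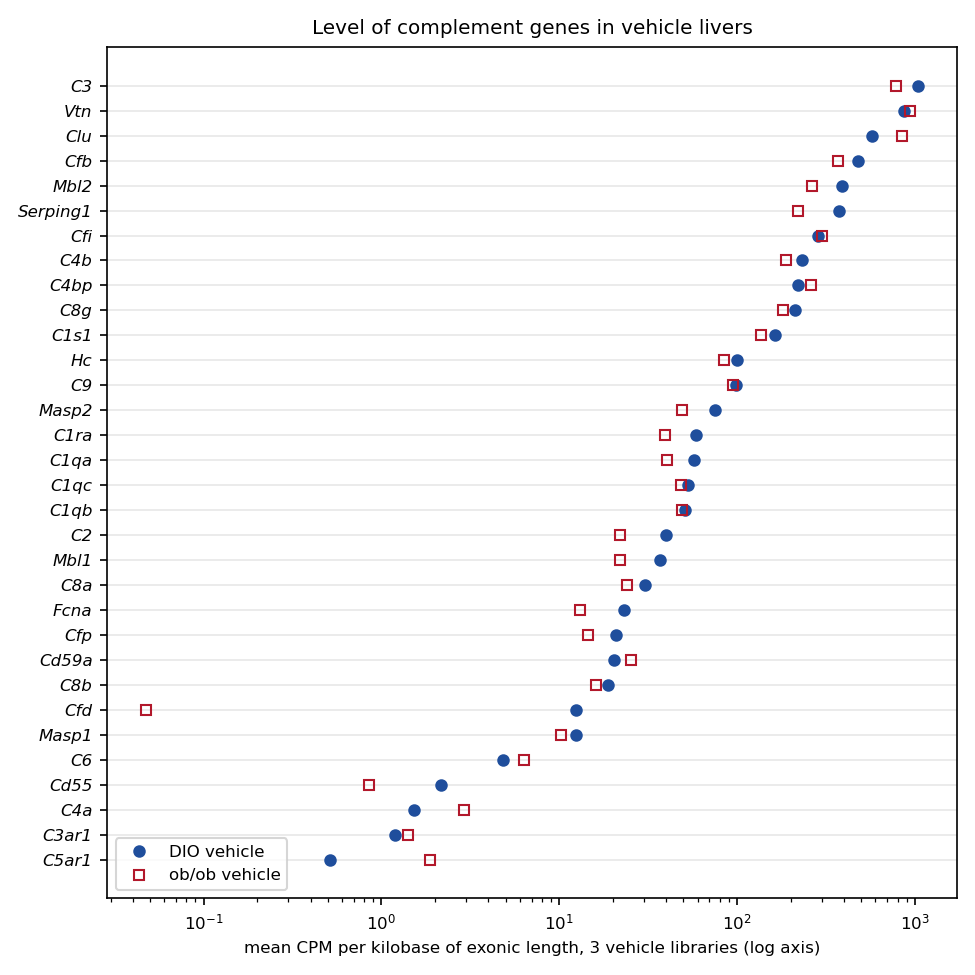
Mean level of each of the 32 complement genes in the 3 vehicle libraries of DIO (filled circles) and ob/ob (open squares) livers, in CPM per kilobase of exonic length on a log axis. C3, Vtn, Clu and Cfb lead in both models, the C1q genes lie together in the middle, and Cfd is 12.5 in DIO and 0.04738 in ob/ob vehicle livers.

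In ob/ob mice, E2 was followed by higher mRNA of 11 complement genes and lower mRNA of none. Against this, 9.81% of all 13433 genes tested were called higher and 12.3% lower in that comparison (edgeR quasi-likelihood test, Benjamini-Hochberg adjusted p under 0.05, used for all calls). The 11 were the C1q subunits C1qa, C1qb and C1qc, the classical components C4a and C4b, the lectin pathway genes Mbl1, Mbl2 and Masp2, the terminal component C8g, and the regulators Serping1 and Cd55. Of the 22 hepatocyte components 7 rose, of the 5 macrophage members 3, and of the 4 other members tested 1. The median log2 fold change was 0.14 over the 22 hepatocyte components, 0.80 over the 5 macrophage members and 0.36 over all 31, against 0.01 over all genes tested. All 3 E2 libraries lay above all 3 vehicle libraries for 16 members and below them for 1 (Clu), where 19.2% and 21.9% of all genes did so.

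**Figure D2:**
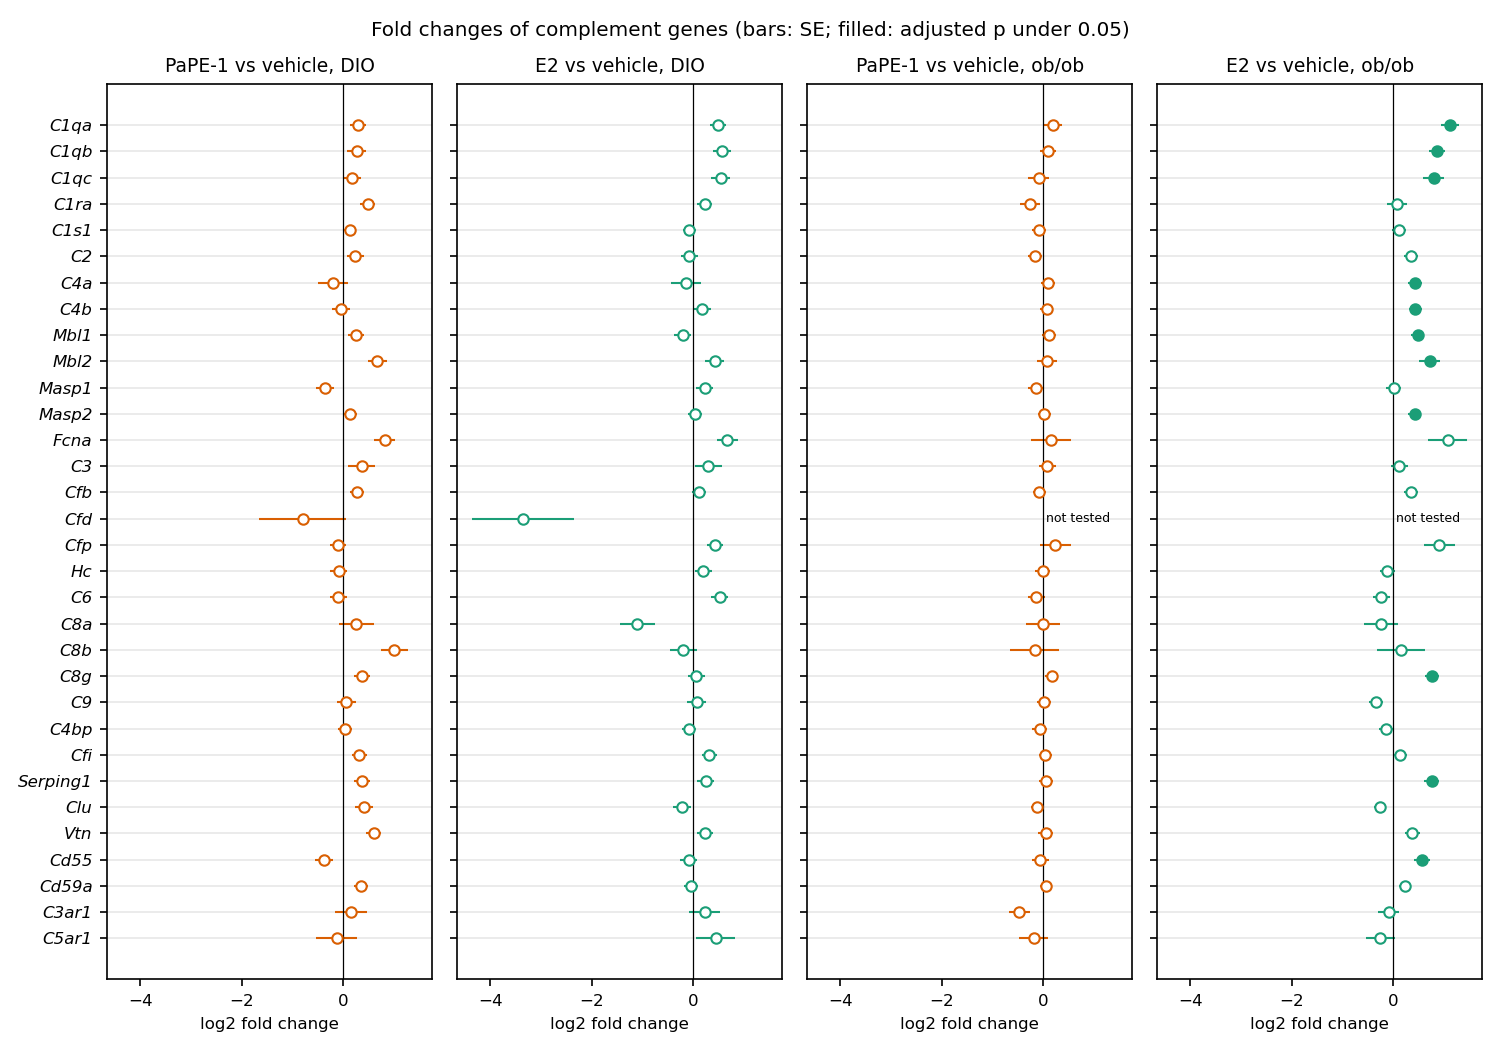
Log2 fold change of each member against vehicle (points, with SE as bars) for PaPE-1 and E2 in DIO livers and PaPE-1 and E2 in ob/ob livers, ordered by pathway. Filled points passed an adjusted p of 0.05: there are 11, all with E2 in ob/ob livers and all above 0.

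C1qa, C1qb and C1qc encode the A, B and C chains of C1q, the recognition protein of the classical pathway. They lie side by side on the minus strand of chromosome 4 (GRCm39), C1qb at chr4:136607437-136613511, C1qc at chr4:136617112-136620242 and C1qa at chr4:136623227-136626155. C1qa had 74.0, 102.9 and 104.3 CPM in the E2 libraries, against 43.8, 42.0 and 44.8 CPM in the vehicle libraries of ob/ob mice. Its log2 fold change of 1.13 (SE 0.18, adjusted p = 0.00322) was the highest of the 31 members that passed the filter on low counts. C1qb had 79.2, 105.4 and 105.2 CPM with E2, against 53.7, 52.5 and 55.7 CPM with vehicle (log2 fold change 0.86, SE 0.16, adjusted p = 0.00492). C1qc had 71.3, 103.6 and 104.4 CPM with E2, against 52.1, 51.5 and 59.7 CPM with vehicle (log2 fold change 0.80, SE 0.21, adjusted p = 0.0210). For each chain the same E2 library, L1, was the lowest of the 3 and still lay above every vehicle library. In bulk liver RNA, more cells of a type and more RNA per cell cannot be told apart. With E2 the chains were close to a 1 to 1 ratio per kilobase: C1qa was at 0.99 and C1qc at 0.948 times the level of C1qb, against 0.823 and 0.992 times with vehicle.

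In PaPE-1-treated ob/ob mice the C1q genes did not separate from vehicle. C1qa had 54.4, 58.8 and 36.5 CPM with PaPE-1, where vehicle libraries had 42.0 to 44.8 CPM, and the log2 fold changes of C1qa, C1qb and C1qc were 0.20, 0.09 and -0.08. In DIO mice E2 gave values in the same direction as in ob/ob mice. C1qa had 92.9, 86.6 and 79.9 CPM with E2, against 52.5, 63.2 and 69.3 CPM with vehicle, and for C1qa, C1qb and C1qc all 3 E2 libraries lay above all 3 vehicle libraries. The log2 fold changes were 0.49, 0.57 and 0.54, with unadjusted p of 0.00926, 0.00774 and 0.0105, and none passed after adjustment (adjusted p between 0.838 and 0.862). The effect of E2 was 0.63 log2 units larger in ob/ob than in DIO mice for C1qa, 0.28 for C1qb and 0.24 for C1qc, and none of these differences passed (interaction, adjusted p = 0.201 for C1qa), so the models are not shown to differ.

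The promoters of C1qb and C1qc are shown because these genes lie in 1 cluster and rose together with an estrogen. C1qa of the same cluster also rose and is not shown. Both promoters shown hold the half-site marked below. The sequences (RefSeq, GRCm38.p6, from 250 bases before to 50 bases after the annotated start; minus strand, C1qb at chr4:136886151-136886450 and C1qc at chr4:136892865-136893164 of that build) are given 5′ to 3′, with matches to the estrogen response element half-site TGACC, or its reverse complement GGTCA, in capitals.
C1qb: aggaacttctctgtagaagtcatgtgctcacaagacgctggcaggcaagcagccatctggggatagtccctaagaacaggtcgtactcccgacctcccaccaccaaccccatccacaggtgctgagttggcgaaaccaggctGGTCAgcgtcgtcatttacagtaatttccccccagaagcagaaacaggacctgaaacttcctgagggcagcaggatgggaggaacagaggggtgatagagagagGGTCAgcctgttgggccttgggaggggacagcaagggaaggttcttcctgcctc
C1qc: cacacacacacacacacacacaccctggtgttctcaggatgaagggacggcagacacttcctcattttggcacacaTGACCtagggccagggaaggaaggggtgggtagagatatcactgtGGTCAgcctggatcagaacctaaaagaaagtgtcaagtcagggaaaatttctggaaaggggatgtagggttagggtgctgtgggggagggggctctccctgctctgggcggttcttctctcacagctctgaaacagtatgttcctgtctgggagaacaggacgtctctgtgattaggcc
C1qb held matches starting 108 and 4 bases before the start, and C1qc held matches starting 174 and 129 bases before it. This half-site is short and common: 40.5% of all 32851 promoters in the table hold it. Of the 23 members with an entry, 14 hold it in at least 1 of their entries (60.9%). That share is by gene and the other by promoter, so the shares cannot be compared. C1qa, the other gene of the cluster, is not among these 14, for want of a match or of an entry. The full estrogen response element (GGTCA and TGACC with 3 bases between them) occurred in 0.07% of all promoters and in 0 of the 23 members. The core GAGGAAG, bound by the macrophage factor PU.1, was found on either strand in C1qc and Fcna (8.7% of the 23, by gene). By promoter, 13.6% of all held it. These matches describe the letters of the windows and are no evidence of binding.

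Some Kupffer cell markers rose with E2, as C1q did. Of 12 Kupffer cell and macrophage markers, 4 rose with E2 in ob/ob livers and 0 fell, where 9.81% of all genes rose and 12.3% fell. Of the 12, 10 had a log2 fold change above 0 and 2 below, with a median of 0.54. Clec4f, which is restricted to Kupffer cells, had 151.7, 200.6 and 212.1 CPM with E2, against 84.9, 51.3 and 83.7 CPM with vehicle (log2 fold change 1.38, SE 0.21, adjusted p = 0.00355). The other 3 were Folr2 (1.42), Csf1r (0.64), the receptor of the macrophage growth factor CSF1, and Adgre1 (0.52), which encodes F4/80, whereas Cd68 (0.09) and Ptprc (-0.12) did not pass. The summed level of the 12 markers was 583.9 to 758.8 CPM with E2, against 420.2 to 565.6 CPM with vehicle. In DIO livers all 12 markers had a log2 fold change above 0 with E2, 0 passed the test, and their summed level was 680.3 to 1022 CPM, against 510 to 674.6 CPM. At an unadjusted p under 0.05, 7 of the markers were higher and 0 lower, where 2.72% and 2.5% of all genes were. All E2 libraries lay above all vehicle libraries for 6 of them, where 4.57% of all genes did so. With PaPE-1 in DIO livers 6 of the 12 were above 0 and 6 below (median -0.02), whereas the 3 C1q genes were above 0. The part of these markers in the C1q result was not tested.

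The receptors C3ar1 and C5ar1, which bind the anaphylatoxins C3a and C5a on macrophages and other myeloid cells, were not called with E2 in either model. In ob/ob livers C3ar1 had 4.30, 6.84 and 5.65 CPM with E2, against 5.57, 6.54 and 6.13 CPM with vehicle, and C5ar1 had 3.70, 4.46 and 3.74 CPM with E2, against 3.87, 5.84 and 4.82 CPM with vehicle. The log2 fold changes were -0.09 and -0.26, and the groups overlapped for both. In DIO livers both values with E2 were above 0, as those of C1q were (log2 fold change 0.23, SE 0.31, for C3ar1 and 0.44, SE 0.38, for C5ar1), and the groups overlapped there too. PaPE-1 in ob/ob livers gave 3.96, 4.92 and 4.25 CPM for C3ar1, below all vehicle libraries (log2 fold change -0.47, unadjusted p = 0.0398, adjusted p = 1). Markers of monocytes and lipid-associated macrophages were mostly lower with E2. Of 8, 7 had a log2 fold change below 0 in ob/ob livers (median -0.67) and 7 in DIO livers (median -0.73). In ob/ob livers 2 fell (Gpnmb, -2.99, and Mmp12, -1.87) and 1 rose (Ly6c2, 2.33), and 0 were called in DIO livers.

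**Figure D3:**
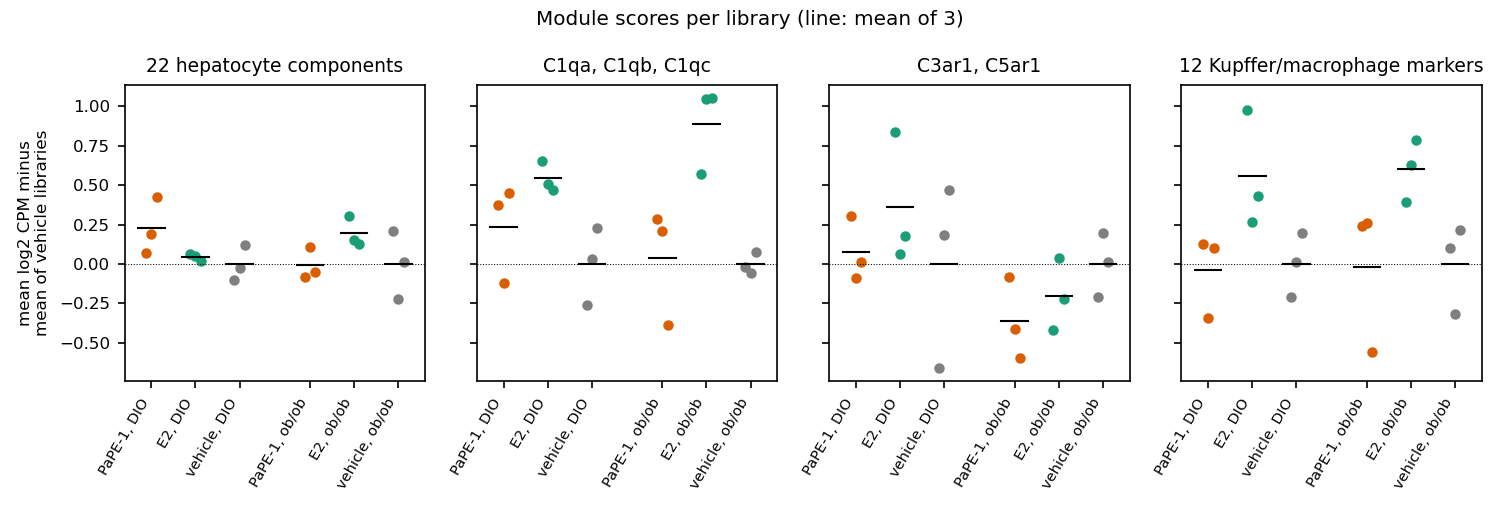
Module scores per library: the mean log2 CPM of the listed genes minus its mean in the vehicle libraries of the same model, for the 22 hepatocyte components, the 3 C1q genes, the 2 receptors and the 12 Kupffer cell and macrophage markers. Points are libraries and lines are means of 3. The C1q score of E2-treated livers is 0.569 to 1.053 in ob/ob mice and 0.468 to 0.655 in DIO mice.

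Summarised per library, the C1q score averaged 0.89 ± 0.28 with E2 in ob/ob livers and 0.00 ± 0.07 with vehicle, and 0.54 ± 0.10 with E2 in DIO livers and 0.00 ± 0.24 with vehicle (SD, n = 3 each). With PaPE-1 it averaged 0.04 ± 0.37 in ob/ob and 0.24 ± 0.31 in DIO livers, and both ranges included 0. The score of the 22 hepatocyte components averaged 0.20 ± 0.09 with E2 and -0.01 ± 0.11 with PaPE-1 in ob/ob livers, where vehicle libraries ranged from -0.22 to 0.21. In DIO livers it averaged 0.23 ± 0.18 with PaPE-1 and 0.04 ± 0.02 with E2, where vehicle libraries ranged from -0.10 to 0.12. Scores are descriptions and were not tested.

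In the classical pathway, C1ra and C1s1 encode the proteases that C1q carries, and C4b and C2 encode the proteins they cleave. With E2 in ob/ob livers C4b had 1441, 1387 and 1315 CPM, against 1168, 911.1 and 1038 CPM with vehicle (log2 fold change 0.44, SE 0.13, adjusted p = 0.0268). C4a, the closely related gene known as sex-limited protein in mice, had 19.3, 21.8 and 20.9 CPM with E2, against 14.2, 18.4 and 14.4 CPM with vehicle (0.43, SE 0.13, adjusted p = 0.0333). The E2 and vehicle libraries did not overlap for either gene. C4a and C4b share sequence: 16.5% of the 100-base windows of the longest C4a transcript in GENCODE M21 occur in C4b, and 35.2% of its 50-base windows. The C4a value is thus uncertain beside a neighbour with many times its reads. C2 had 66.0, 74.4 and 79.0 CPM with E2, against 69.5, 47.2 and 57.6 CPM with vehicle (0.36, adjusted p = 0.0713). C1ra (0.07) and C1s1 (0.11) did not pass, and 34.5% of the 100-base windows and 48% of the 50-base windows of C1ra occur in its copy C1rb. The classical proteases were thus not called beside their recognition protein.

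In the lectin pathway, Mbl1 and Mbl2 encode the mouse mannose-binding lectins A and C, and Masp1 and Masp2 encode their proteases. Mbl2 had 602.3, 479.6 and 472.7 CPM with E2 in ob/ob livers, against 367.8, 250.5 and 341.3 CPM with vehicle (log2 fold change 0.72, SE 0.20, adjusted p = 0.0235). Mbl1 had 209.3, 177.1 and 155.6 CPM with E2, against 147.5, 119.7 and 125.9 CPM with vehicle (0.49, SE 0.13, adjusted p = 0.0210). Masp2, the protease that cleaves C4 and C2, had 225.4, 221.3 and 223.4 CPM with E2, against 191.2, 139.5 and 176.0 CPM with vehicle (0.43, SE 0.13, adjusted p = 0.0327). The E2 libraries lay above every vehicle library for all 3 genes, and for Masp2 they differed from each other by only a few CPM. Masp1 did not pass, at 74.5, 74.3 and 75.9 CPM with E2, against 93.9, 54.7 and 78.4 CPM with vehicle (0.01). Fcna, which encodes a ficolin made by macrophages in mice, had 32.5, 41.3 and 43.2 CPM with E2, against 21.9, 11.4 and 22.7 CPM with vehicle, and its log2 fold change of 1.08 had an SE of 0.39 and an adjusted p of 0.0825.

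The promoters of Mbl1 and Mbl2, genes on different chromosomes that both rose with E2, are shown for the stretch they share. They are given 5′ to 3′ (RefSeq, GRCm38.p6, plus strand, Mbl1 at chr14:41151206-41151505 and Mbl2 at chr19:30232678-30232977), with the most similar ungapped 30-base window of the pair in capitals.
Mbl1: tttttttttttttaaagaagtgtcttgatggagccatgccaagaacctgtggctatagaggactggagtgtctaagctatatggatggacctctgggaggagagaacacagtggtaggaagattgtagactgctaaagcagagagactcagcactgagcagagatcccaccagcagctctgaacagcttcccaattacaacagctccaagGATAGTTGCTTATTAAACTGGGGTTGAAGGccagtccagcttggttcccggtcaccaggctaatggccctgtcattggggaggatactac
Mbl2: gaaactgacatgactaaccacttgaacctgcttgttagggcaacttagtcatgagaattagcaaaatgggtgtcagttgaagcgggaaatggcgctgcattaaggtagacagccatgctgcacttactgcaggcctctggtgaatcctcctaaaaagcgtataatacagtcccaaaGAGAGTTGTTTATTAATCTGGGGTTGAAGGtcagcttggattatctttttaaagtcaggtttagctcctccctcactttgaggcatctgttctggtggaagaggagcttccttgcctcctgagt
The window lies 40 to 11 bases before the start in Mbl1 and 74 to 45 bases before it in Mbl2, and 27 of its 30 bases are identical (90%). Each promoter also holds 1 match to the half-site TGACC, starting 10 bases after the start in Mbl1 and 46 bases before it in Mbl2. No 100-base window is shared by the transcripts of Mbl1 and Mbl2, so their counts can be told apart.

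In the alternative pathway, C3 and Cfb (factor B) form the convertase, Cfd (factor D) activates it and Cfp (properdin) stabilises it. In ob/ob livers C3 had 5429, 3801 and 3974 CPM with E2, against 4636, 3371 and 4297 CPM with vehicle (log2 fold change 0.12), and the groups overlapped. Cfb had 1294, 1341 and 1248 CPM with E2, against 1166, 832.3 and 1077 CPM with vehicle, higher in every E2 library but not past the threshold (0.36, adjusted p = 0.0713). Cfp had 35.4, 44.3 and 52.4 CPM with E2, against 25.4, 17.6 and 28.2 CPM with vehicle (0.91, SE 0.31, adjusted p = 0.0654). Properdin is made by myeloid cells, and neutrophil genes moved strongly in the same libraries: 9 of the 11 neutrophil markers tested rose, S100a8 had 21.3, 78.1 and 41.9 CPM with E2, against 1.25, 1.57 and 1.61 CPM with vehicle, and S100a9 had 36.5, 130.2 and 79.4 CPM, against 2.49, 3.92 and 3.28 CPM. The summed level of the 11 markers was 99.8 to 366.4 CPM with E2, against 8.85 to 10.98 CPM with vehicle. Their part in the level of Cfp was not tested.

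In the terminal pathway 1 of 6 genes rose with E2 in ob/ob livers. This was C8g, which encodes the γ chain of C8 and lies at chr2:25388662-25391919 (GRCm39, minus strand). C8g had 475.4, 419.6 and 405.4 CPM with E2, against 224.5, 262.1 and 291.5 CPM with vehicle (log2 fold change 0.76, SE 0.13, adjusted p = 0.00405). The genes of the other chains of C8, adjacent on chromosome 4, had 87.5, 73.1 and 64.0 CPM (C8a) and 39.0, 42.9 and 36.3 CPM (C8b) with E2, against 127.7, 59.2 and 82.9 CPM (C8a) and 61.9, 17.3 and 28.9 CPM (C8b) with vehicle. Their log2 fold changes were -0.24 and 0.15, and the vehicle libraries spread more widely than the E2 libraries for both. C9, whose product forms the ring of the membrane pore, had 198.8, 137.8 and 167.2 CPM with E2, against 219.3, 243.1 and 183.7 CPM with vehicle (-0.34, adjusted p = 0.106). Hc, which encodes C5, and C6 had log2 fold changes of -0.11 and -0.23 and did not pass.

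Among the regulators, Serping1 and Cd55 rose. Serping1 encodes C1 inhibitor, which blocks C1r, C1s and the MASP proteases, and lies at chr2:84595704-84605778 (GRCm39, minus strand). It had 689.6, 688.1 and 649.2 CPM with E2, against 475.8, 330.8 and 409.8 CPM with vehicle (log2 fold change 0.76, SE 0.14, adjusted p = 0.00492). Cd55, which encodes the decay-accelerating factor of cell membranes, had 14.4, 13.4 and 17.3 CPM with E2, against 8.91, 11.6 and 10.5 CPM with vehicle (0.57, SE 0.16, adjusted p = 0.0249). Of the 100-base windows of Cd55, 5.5% occur in its copy Cd55b, and 10.7% of its 50-base windows do. The C1q genes and Serping1 were thus higher in the same 3 libraries. Of the genes of the proteases that C1 inhibitor blocks, Masp2 passed, whereas C1ra, C1s1 and Masp1 did not. The 5 other regulators did not pass: Vtn (0.38, adjusted p = 0.0801), Cd59a (0.23), Cfi (0.14), C4bp (-0.14) and Clu (-0.26). Clu was the member with every E2 library below every vehicle library, at 1732, 1553 and 1448 CPM with E2, against 1837, 1987 and 1917 CPM with vehicle (adjusted p = 0.149).

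**Figure D4:**
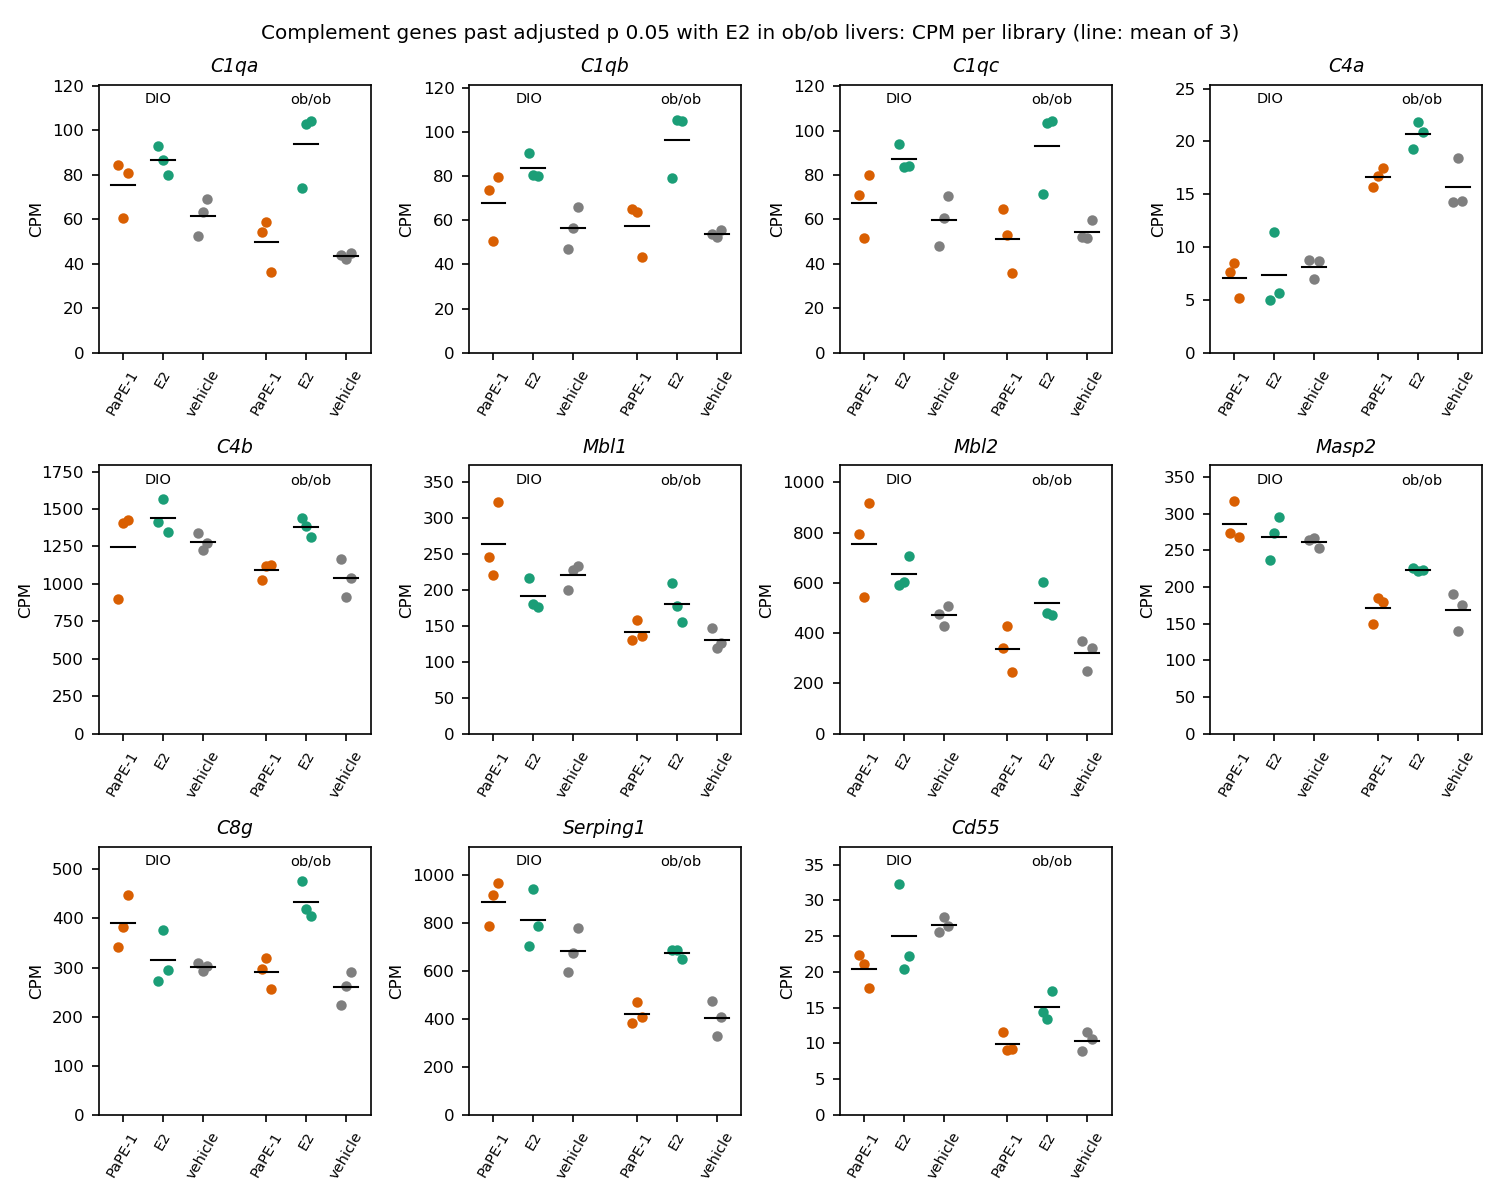
CPM per library of the 11 complement genes that passed an adjusted p of 0.05 with E2 in ob/ob livers, in PaPE-1, E2 and vehicle livers of DIO mice (left of each panel) and ob/ob mice (right). Points are libraries, lines are means of 3 and all axes start at 0. In ob/ob livers the 3 E2 points lie above the 3 vehicle points in each panel.

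The calls with E2 in ob/ob livers rested on single libraries to different degrees. C1qa, C1qb, C8g and Serping1 stayed past the threshold when any 1 of the 9 ob/ob libraries was left out. The other 7 each lost the call in 4 or 5 of the 9 fits, and the count of members called ranged from 4 without E2 library L12 to 14 without PaPE-1 library L16. It was 6 without E2 library L19 or vehicle library L13, and 7 without vehicle library L8. Calls over all genes moved alongside, with 778 of 13645 genes called without L12, 1446 of 13650 without L19, 1725 of 13707 without L13, 2050 of 13660 without L8 and 3314 of 13707 without L16, against 2972 of 13433 with all libraries. With a trend on gene length removed, Mbl2 was no longer called (log2 fold change 0.46), and the values of C1qb and C1qc were 0.59 and 0.52, still past the threshold. C4a was not called without the filter on low counts.

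Markers of other cells and other liver proteins also differed between E2 and vehicle in ob/ob livers, where 9.81% of all genes tested rose and 12.3% fell. Of 10 endothelial markers 9 rose (median log2 fold change 0.90). Of 11 hepatocyte markers 5 rose and 1 fell, with Alb at 119300, 104900 and 103000 CPM with E2, against 85090, 63950 and 83010 CPM with vehicle (0.52, adjusted p = 0.0390). Of 12 acute phase genes, which like complement are secreted by hepatocytes, 2 rose (Fga, 0.53, and Fgb, 0.46). Their part in the values of the complement genes was not tested.

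Of 27 other complement genes that had been counted, 22 were tested in ob/ob livers. With E2, 3 rose and 0 fell, where 9.81% of all genes tested rose and 12.3% fell. These were Vsig4 (log2 fold change 0.81, adjusted p = 0.0468), the complement receptor of Kupffer cells, Cpn1 (0.55, adjusted p = 0.0170), which encodes a subunit of the carboxypeptidase that inactivates anaphylatoxins, and Cd59b (0.74, adjusted p = 0.0418). The median over the 22 was 0.15.

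PaPE-1 in ob/ob livers gave 0 called members, as it gave 0 called genes of 13433 (0%), and limma voom and DESeq2 called 0 members too. At an unadjusted p under 0.05, 0 members were higher and 1, C3ar1, was lower, where 0.998% and 1.65% of all genes were. Every PaPE-1 library lay above every vehicle library for 0 members and below for 1, where 2.78% and 3.01% of all genes did so. The log2 fold changes of the 31 members ran from -0.47 to 0.24, with a median of 0.02. For the 11 genes that rose with E2 the values with PaPE-1 overlapped those of vehicle, for example 381.1, 472.5 and 409.9 CPM for Serping1 and 340.3, 428.0 and 245.1 CPM for Mbl2.

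In DIO livers PaPE-1 gave 0 members past the adjusted threshold, again with 0 of 13884 genes (0%), also with limma voom, whereas DESeq2 called 5 members and 752 of 22831 genes. At an unadjusted p under 0.05, 10 members were higher and 0 were lower, where 11.4% of all genes were higher and 9.68% lower. These 10 were C1ra, C8b, C8g, Cfi, Mbl2, Serping1, Clu, Vtn, Cd59a and Fcna, 8 of them hepatocyte components. All PaPE-1 libraries lay above all vehicle libraries for 12 members and below for 3 (Masp1, Cd55 and Cfd), where 16.4% and 15.8% of all genes did so. The median log2 fold change was 0.26 over the 22 hepatocyte components and 0.18 over the 5 macrophage members, against -0.03 over all genes.

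Vtn had the smallest p of the members with PaPE-1 in DIO livers. It had 2063, 2105 and 2725 CPM with PaPE-1, against 1426, 1428 and 1673 CPM with vehicle (log2 fold change 0.61, SE 0.15, unadjusted p = 0.0016, adjusted p = 0.0783). Fcna had 63.2, 38.4 and 73.6 CPM with PaPE-1, against 27.7, 35.2 and 36.4 CPM with vehicle (0.82, SE 0.21, adjusted p = 0.0826). Mbl2 had 794.6, 545.5 and 918.9 CPM with PaPE-1, against 475.5, 430.1 and 506.3 CPM with vehicle (0.68, SE 0.19, adjusted p = 0.0922). C8b had 70.3, 64.1 and 120.7 CPM with PaPE-1, against 29.9, 44.9 and 51.9 CPM with vehicle (1.01, SE 0.27, adjusted p = 0.0966), and C1ra had 207.3, 205.1 and 267.4 CPM, against 146.5, 168.8 and 171.2 CPM (0.48, SE 0.14, adjusted p = 0.107). The PaPE-1 and vehicle libraries did not overlap for any of these 5 genes, and library WP24 was the highest PaPE-1 value in each. These 5 are the members that DESeq2 called. Of 11 hepatocyte markers, 7 were higher with PaPE-1 at an unadjusted p under 0.05 and 0 were lower (median log2 fold change 0.35), and their part in the values of the hepatocyte components was not tested.

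E2 in DIO livers gave 0 members past the adjusted threshold, of 0% of all genes tested, and 0 with limma voom and DESeq2 too. At an unadjusted p under 0.05, 8 members were higher (C6, Cfi, Mbl2, C1qa, C1qb, C1qc, Cfp and Fcna) and 2 were lower (C8a and Cfd), where 2.72% and 2.5% of all genes were. All E2 libraries lay above all vehicle libraries for 10 members and below for 2, where 4.57% and 5.5% of all genes did so. Of the 8, C1qa, C1qb, C1qc, Cfp and Fcna are made by macrophages or other myeloid cells. Fcna had 51.7, 48.2 and 58.6 CPM with E2, against 27.7, 35.2 and 36.4 CPM with vehicle (log2 fold change 0.68, SE 0.21, unadjusted p = 0.00727), and Cfp had 53.1, 40.3 and 44.1 CPM, against 33.1, 33.3 and 35.7 CPM (0.43, SE 0.15, unadjusted p = 0.0150). C6 had 30.6, 22.7 and 20.97 CPM with E2, against 15.5, 18.01 and 18.1 CPM with vehicle (0.53, unadjusted p = 0.00877). C8a had 62.1, 55.3 and 41.2 CPM with E2, against 69.3, 127.6 and 142.7 CPM with vehicle (-1.10, SE 0.35, unadjusted p = 0.0118). In each of these the groups were apart, and the adjusted p lay between 0.838 and 0.879. The neutrophil markers of the ob/ob comparison were low in DIO livers, with S100a8 at 0.286 to 1.90 CPM with E2, against 0.383 to 0.917 CPM with vehicle.

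Cfd, the gene of factor D or adipsin, is known as a product of fat cells and showed the widest range of all members. In DIO livers it had 3.65, 7.30 and 8.92 CPM with PaPE-1 and 0.0902, 3.19 and 0.0515 CPM with E2, against 11.5, 13.5 and 9.66 CPM with vehicle. Both ligands left every library below every vehicle library. The log2 fold change was -0.80 with PaPE-1 and -3.36 with E2 (SE 1.0, unadjusted p = 0.0118, adjusted p = 0.879), and the middle E2 value, that of library WE14, was many times the other 2. Without WE14, Cfd passed with E2, on 2 and 1 reads in the remaining libraries. In ob/ob livers Cfd had 10, 11 and 10 reads with E2, against 2, 0 and 0 reads with vehicle, and 3, 1 and 1 reads with PaPE-1, too few to pass the filter on low counts. Fitted without that filter it was called higher with E2, as it was in 7 of the 9 fits with 1 ob/ob library left out, in which the filter kept it. With so few reads its fold is not given.

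Cidec and Plin4, genes of lipid droplets that fat cells and fat-laden hepatocytes express, went the same way as Cfd in DIO livers. Cidec had 4.67, 7.69 and 5.16 CPM with PaPE-1 and 0.767, 12.6 and 1.70 CPM with E2, against 19.3, 15.3 and 14.8 CPM with vehicle, and the E2 library with the high value was again WE14. Plin4 had 5.45, 12.4 and 8.72 CPM with PaPE-1 and 4.92, 7.39 and 6.18 CPM with E2, against 12.6, 32.4 and 16.1 CPM with vehicle. Of the 8 fat cell genes listed 3 could be tested in DIO livers, and 0 passed with either ligand (median log2 fold change -1.20 with PaPE-1 and -1.71 with E2). The 3 values ran from -1.48 to -0.07 with PaPE-1 and from -1.73 to -0.56 with E2. Adipoq, the defining marker of fat cells, had at most 1 read in any DIO library. The part of fat cell RNA in the level of Cfd was not tested. In ob/ob livers Cidec and Plin4 were far higher than in DIO livers, with vehicle at 110.9 to 167.5 and 53.0 to 86.0 CPM, while Cfd was near 0 (levels from separately scaled tables, not tested). With E2 in ob/ob livers all 4 tested genes of the list had a log2 fold change below 0 (median -0.37), and 0 passed. The reads of Cfd went the other way.

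**Figure D5:**
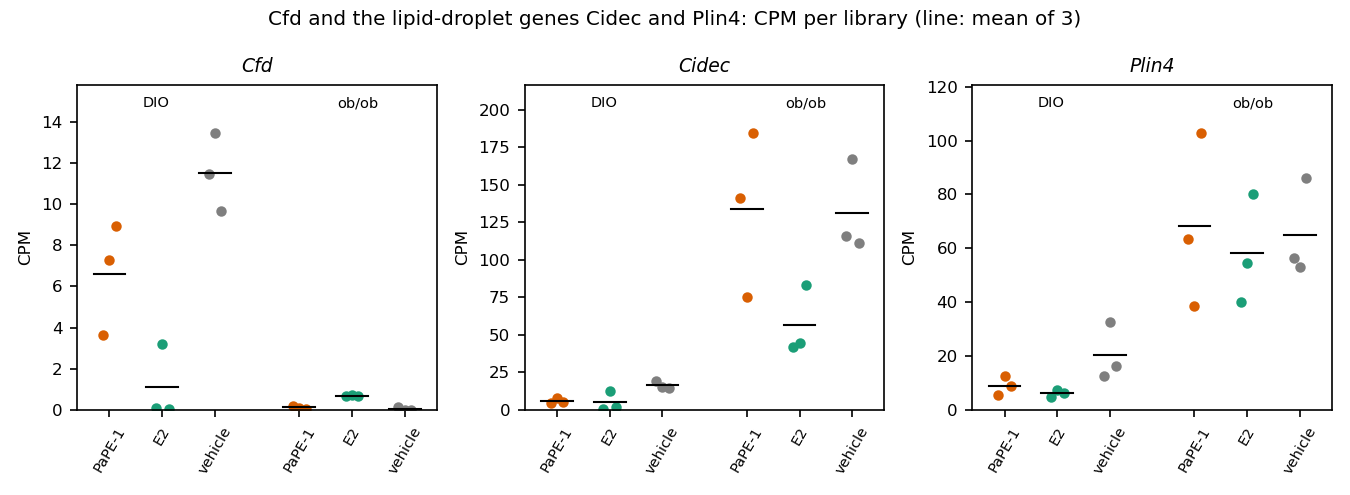
CPM per library of Cfd, Cidec and Plin4 in PaPE-1, E2 and vehicle livers of DIO mice (left of each panel) and ob/ob mice (right). Points are libraries and lines are means of 3, and all axes start at 0. Cfd is highest in DIO vehicle livers, at 9.66 to 13.5 CPM, and below 1 CPM in every ob/ob library.

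Whether an effect differed between the models was tested as an interaction over the 18 libraries. For PaPE-1, 0 members passed, with 0% of all 14171 genes and also 0 members with limma voom and DESeq2, and 4 had an unadjusted p under 0.05, where 12.1% of all genes did. These were C1ra, Mbl2, Clu and Vtn, each with a lower log2 fold change in ob/ob than in DIO livers. C1ra (0.48 in DIO, -0.26 in ob/ob) and Clu (0.41 and -0.12) differed in sign. The difference was -0.76 for C1ra (SE 0.25, adjusted p = 0.284) and -0.57 for Vtn (SE 0.21, adjusted p = 0.312). For E2, 0 members passed, where 2 genes or 0.0141% did, and 7 had an unadjusted p under 0.05, where 16.9% of all genes did. C8g (0.68, adjusted p = 0.137), Mbl1 (0.68, adjusted p = 0.141), Cd55 (0.64), C1qa (0.63), Serping1 (0.50) and Cfd had a larger log2 fold change in ob/ob than in DIO livers, and C6 had a smaller one (-0.77, adjusted p = 0.141). Mbl1 had 217.1, 180.4 and 176.8 CPM with E2 in DIO livers, against 200.6, 228.2 and 232.8 CPM with vehicle, and C8g had 273.5, 377.2 and 295.4 CPM, against 308.2, 292.7 and 302.2 CPM, so for both the DIO groups overlapped. DESeq2 called 1 member (Cfd) and 338 of 24095 genes, and limma voom called 0 members. Without the DIO library WE14, C8g, C4a and Cfd passed in this test, as did 831 of 14431 genes in all.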

How the data were processed

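Livers of 18 ovariectomized female mice were sequenced as poly-A RNA with a stranded kit, with 3 libraries in each of 6 groups. The authors deposited raw counts per gene for each model, made with STAR (2.7.6a) and featureCounts (2.0.0, strand option 2, no option for multi-mapping reads) on GRCm39 per the labels and file headers. They also deposited 4 tables of DESeq2 results with 36 columns of normalized counts, log2 fold changes and p-values, which were not used. The extraction protocol speaks of 2 sequenced samples per group, whereas 3 were given.

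The counts were tested with edgeR (4.0.16) in R (4.3.3). Genes were kept by filterByExpr, scaled by TMM and fitted with 1 mean per group over the 9 libraries of a model, or over all 18 libraries for interactions, by the robust quasi-likelihood test. P-values were Benjamini-Hochberg adjusted over all genes tested, and the threshold was 0.05. Exact permutation of 3 against 3 libraries cannot give a p below 0.1 and was not used. Log2 CPM for scores used a prior count of 2. Total counts were 10470665 to 21703791 per library. The labels speak of biological replicates but do not tie libraries to litters or batches, so p-values measure the spread between these libraries.

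Alternatives were DESeq2 (1.42.0), limma voom (3.58.1), DESeq2 size factors, no filter on low counts, a minimum of 10 counts in every library, the compared groups alone, removal of a trend on gene length (loess span 0.5) and each library left out in turn. The fits were tested on simulated data. Every member is named, members past the threshold are given in every library, and other lists by at most 4 genes past it plus defining markers. Cidec and Plin4 were named after their values were seen, as were Cd68 and Ptprc. The members, lists and tests were chosen with earlier results of these data known. Promoters came from RefSeq (GRCm38.p6), with an entry for 23 of the 32 members.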

Additional observations from a re-analysis of the deposited data

How the results depend on the processing

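With E2 in ob/ob livers, 11 to 14 members were called under the 7 other settings, and with 1 library left out the count ranged from 4 to 14, while calls over all genes ranged from 778 to 3328. Of the 11, C4a was lost with no filter on low counts and Mbl2 with the length trend removed. Cfd was gained with no filter and in 7 of the 9 fits with a library left out. Cfp was gained, as higher, with DESeq2, limma voom, the compared groups alone and without L16. Fcna was gained with limma voom, the compared groups alone and without L16. DESeq2 also gained Cfb and Vtn, and C2 was gained without L1 or without L3. C1qa, C1qb, C8g and Serping1 were called in all 7 settings and all 9 fits with a library left out. C9 was called lower without E2 library L1 (log2 fold change -0.48) and with the length trend removed (-0.45). With PaPE-1 in DIO livers, where 0 members were called, DESeq2 called 5 (Vtn, C8b, Fcna, Mbl2 and C1ra; 752 of 22831 genes in all), no filter on low counts gave 3 (Mbl2, Vtn and Fcna; 385 of 22841 genes), the compared groups alone gave 1 (Vtn; 773 of 13604 genes), and leaving out a library gave 0 to 2 (Vtn without WE3, with 611 of 14113 genes, and Mbl2 and Fcna without WP12, with 153 of 14140). The other settings gave 0. With E2 in DIO livers, leaving out a library gave 0 to 1, with 1 only without WE14 (Cfd, lower; 133 genes in all), and the 7 settings gave 0. With PaPE-1 in ob/ob livers every setting and every fit with a library left out gave 0. For the difference in the E2 effect between models DESeq2 called 1 member (Cfd; 338 of 24095 genes), and leaving out a library gave 0 to 3, the highest count without WE14 (831 of 14431 genes, against 2 of 14171). The same test for PaPE-1 gave 0 throughout. The causes of these shifts were not tested. Over all members and comparisons 0 called values changed sign.

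No paired analysis was possible because the numbers in the labels name single libraries and the compared groups share fewer than 2 of them. Depth limits Cfd and the receptors C3ar1 and C5ar1, which had few reads per library.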
